A study of Arabidopsis thaliana with 4 samples.

Results

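Wild type plants of the Arabidopsis thaliana ecotype Wassilewskija (Ws) were compared with wild type plants of the ecotype Columbia, with 1 array for each. Of the 22810 probe sets on the array, 64 controls were left out, both arrays were scaled to a common median signal of 25.3, and the 11346 probe sets with a signal of 30 or more on at least one of the 2 arrays were described. The differences therefore have no replicate check, and no test, standard error or p-value is given. Above-ground tissue had been collected from plants 31 days old, 4 h into a light period of 8 h that alternated with 16 h of dark at 21 °C. The series also holds an fnr1 mutant in each ecotype, grown and sampled in the same way, again with 1 array each. These fnr1 Ws and fnr1 Columbia arrays share no array with the wild type pair, and their ratio is given beside that of wild type. The mutant allele and the number of plants behind an array are not given in the sources used here. FNR1 itself was not analysed here.

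Ecotypes are natural inbred lines of a species that were collected at different places and have since been kept by selfing. They differ by base changes, small insertions and deletions, and by genes that one line carries and another lacks or has in another copy number. In Arabidopsis such presence and absence is best known from immune receptor genes, which sit in clusters of near copies that expand and shrink between lines. The array carries probes designed on the Columbia genome, and a probe set's signal sums up a row of short probes. A lower Ws signal can come from less transcript, from base differences under the probes or from a gene missing in Ws, and these cannot be told apart with the files used here. In tissue that mixes cell types, fewer cells of a type and less RNA per cell cannot be told apart either.

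Both arrays carried leaf RNA by the one leaf marker that was measured. RCA, which encodes Rubisco activase, had a signal of 6787 in Ws and 7018 in Columbia. Of 59 marker genes in 9 lists for leaf, root, flower, seed, pollen, meristem, trichome, guard cell and vascular tissue, 10 had a probe set listed and 3 were described. The trichome regulator TRY had 62.2 in Ws and 73.1 in Columbia, and the guard cell regulator FMA had 43.4 in Ws and 49.1 in Columbia. The other 7, which include the measured pollen, root and meristem markers, lay between 0.511 and 24.9 in Ws and between 0.677 and 17.5 in Columbia. Before scaling, the median signal was 28.9 on the Ws array and 22.1 on the Columbia array, against 27.5 on fnr1 Ws and 27.7 on fnr1 Columbia. The 3' to 5' signal ratio of the newer actin control was 2.36 in Ws and 2.78 in Columbia. That of an older actin control was 20.3 in Ws and 15.2 in Columbia.

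Most probe sets were close to equal in the 2 ecotypes. The middle 90% of log2 ratios of Ws over Columbia ran from -0.86 to 0.76 around a median of 0.05, and log2 signals correlated across probe sets with r = 0.934 and Spearman's rho = 0.917. At least 2-fold differences were found for 262 probe sets higher in Ws (2.31% of those described) and 416 lower in Ws (3.67%). The tail of lower signals was longer. At 4-fold or more there were 19 higher and 93 lower, at 8-fold or more 6 higher and 33 lower, and at 16-fold or more 1 higher and 9 lower. At 1.5-fold the sides were nearly even, with 1083 higher and 1057 lower. Lower signals made up 61.4% of the 2-fold differences after median scaling and 17.2% on the deposited scale, where 1060 were higher and 220 lower. On that scale the dimmer Columbia array moved the median log2 ratio of the probe sets to 0.45. Named to single genes, each by its brightest probe set, 138 of 5951 genes were at least 2-fold higher (2.32%) and 217 lower (3.65%). Counts of list members below are to be read beside these shares.

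**Figure D1:**
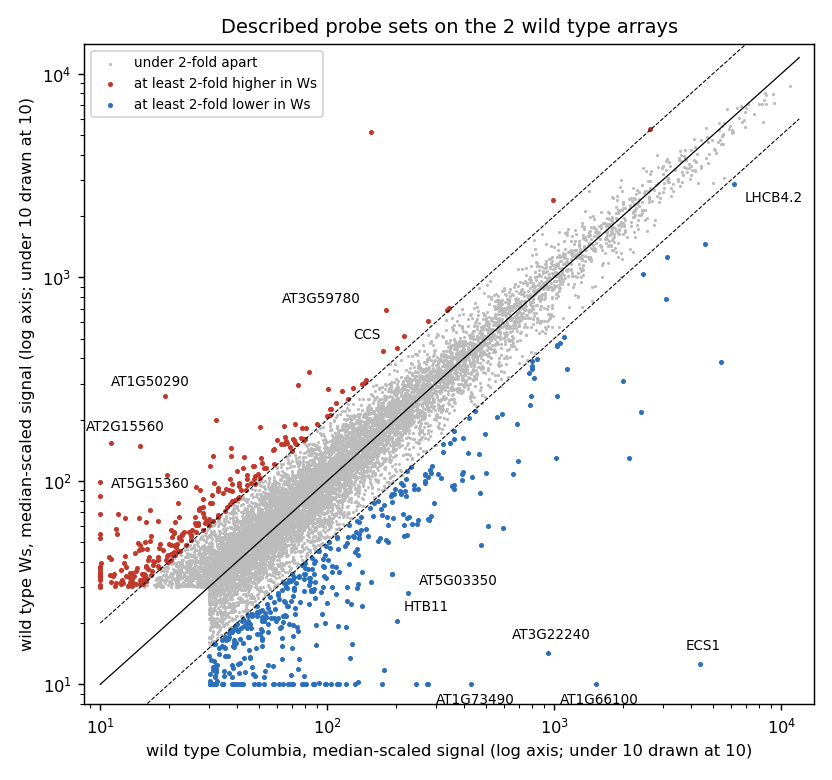
Median-scaled signal of the 11346 described probe sets, with wild type Ws on the vertical and wild type Columbia on the horizontal log axis and signals under 10 drawn at 10. Dashed lines mark 2-fold, red points are at least 2-fold higher and blue points at least 2-fold lower in Ws, and the blue points reach farther from the diagonal than the red ones.

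The 100 probe sets just inside the signal minimum, with a brighter signal up to 30.6, had a median absolute log2 ratio of 0.28 and 9 at least 2-fold apart. The 100 just outside it, at 29.3 and above, had a median of 0.40 and also 9. Of the described probe sets, 10004 passed the minimum on both arrays, 705 on Ws alone and 637 on Columbia alone. A probe set that passed on one array alone was bright there by selection, and among those that passed on both arrays 101 were at least 2-fold higher and 182 lower. The higher calls thinned out with brightness. They made up 3.86% of the 3341 probe sets whose brighter signal lay between 30 and 60, and 0.505% of the 594 with 960 or more. The share of lower calls fell less over the same range, with 4.22% in the dimmest class and 3.03% in the brightest.

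A larger share of the lower than of the higher signals was found again in the fnr1 arrays, given as a description. Of the 416 probe sets lower in wild type Ws, 277 (66.6%) were also at least 2-fold lower in fnr1 Ws against fnr1 Columbia, beside 3.8% of all described probe sets there. For the 262 higher ones the count was 90 (34.4%), beside 1.63%. The median log2 ratio of the lower set was -1.47 in wild type and -1.42 in fnr1, while that of the higher set was 1.25 in wild type and 0.76 in fnr1. In the brightest class 88.9% of 18 lower probe sets were lower in fnr1 too, and in the dimmest class 54.6% of 141. For the higher probe sets there was no such rise, with 33.3% of 3 in the brightest class and 34.1% of 129 in the dimmest. At 4-fold or more in wild type, 90 of 93 lower and 16 of 19 higher probe sets were at least 2-fold different in fnr1 with the same sign. The 2 ratios correlated over the described probe sets with r = 0.681 and Spearman's rho = 0.435, given as a description since probe sets on an array are not independent. Within an ecotype the genotypes differed less. Against wild type of the same ecotype, fnr1 had 25 probe sets at least 2-fold higher (0.22%) and 47 lower (0.414%) in Ws, and 76 higher (0.67%) and 54 lower (0.476%) in Columbia.

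**Figure D2:**
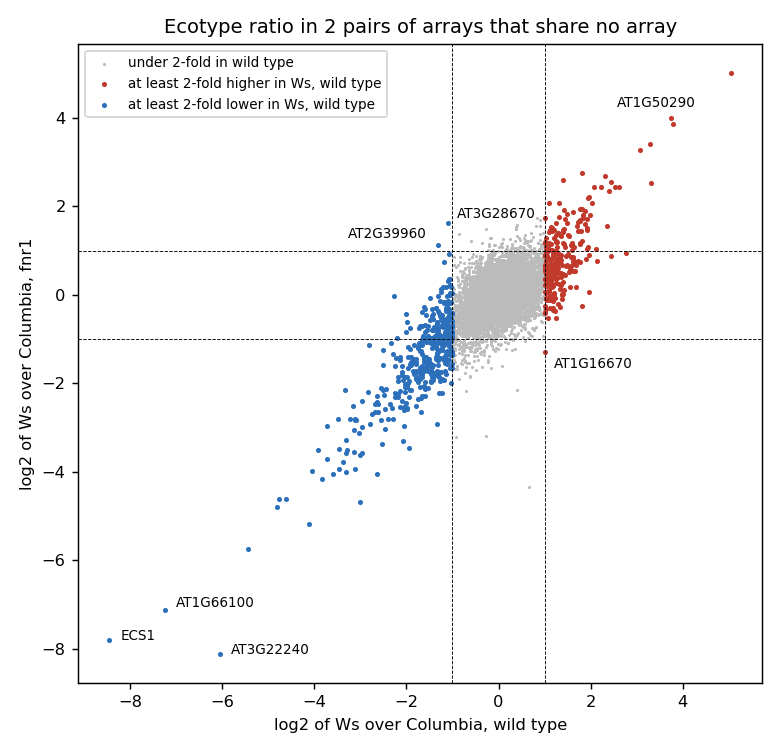
Log2 ratio of Ws over Columbia for the described probe sets in wild type (horizontal axis) and in fnr1 (vertical axis), 2 pairs of arrays with no array in common. Dashed lines mark 2-fold, colours show the wild type difference, and the farthest points lie near the diagonal, with r = 0.681 over all points.

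A small group of defence-related transcripts that were bright in Columbia gave almost no signal in Ws. ECS1, which encodes a cell wall protein described from the response of Columbia to the bacterium Xanthomonas, had 12.6 in wild type Ws and 4399.9 in wild type Columbia. In the fnr1 arrays it had 22.1 in Ws and 4929 in Columbia. Its log2 ratio of -8.45, a 349-fold lower signal, was the lowest among probe sets with both signals at 10 or more, and rests on a Ws signal close to that floor. AT1G66100, a member of the thionin family of small antimicrobial peptides, had 3.01 in Ws and 1523 in Columbia, and 0.281 in fnr1 Ws and 1401 in fnr1 Columbia. Signals under 10 were set to 10 before ratios were taken, so the size is a bound, and AT1G66100 was at least 152-fold lower. AT3G22240, a small cysteine-rich membrane protein of the same type as PCC1, had 14.2 in Ws and 934 in Columbia, a 65.7-fold lower signal. In fnr1 its signal was 11.5 in Ws and 3188 in Columbia. Both Ws arrays thus lay near or under the floor for all 3 genes, and the Columbia arrays lay far above it.

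The described relatives of these genes had smaller differences. THI2.2, the other thionin described, was also lower in wild type Ws, with 97.4 in Ws and 270 in Columbia, a log2 ratio of -1.47 (-0.96 in fnr1). Next to AT3G22240, the PCC1-type genes AT5G04080 (-0.50) and AT4G33660 (0.04) were within 2-fold. ECS1 was the sole member described of a list of 38 salicylic acid and defence genes, of which 3 had a probe set listed.

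Receptors that sense pathogen molecules inside the cell made up a further group. Proteins with a nucleotide-binding site and leucine-rich repeats (NBS-LRR) detect effectors that pathogens deliver and set off cell death and defence, and many carry a TIR domain at their start. The list held 192 entries, 115 had a probe set and 15 were described, of which 8 were lower in Ws, 1 was higher and 6 were within 2-fold. Over all described genes 3.65% were lower and 2.32% higher. Of the 15, 6 passed the signal minimum on both arrays, 1 on Ws alone and 8 on Columbia alone. Most of the lower members were thus described because of their Columbia signal, and 3.65% is no like share for those. Among the 6 measured on both arrays 2 were lower. The lower count was 6 on the deposited scale and 8 under each of the other scalings. In fnr1 the same 15 genes had 8 lower and 0 higher.

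One receptor measured above the minimum in both ecotypes was AT4G19530, a TIR-type gene, with 67.5 in Ws and 288 in Columbia (log2 ratio -2.09, and -1.75 in fnr1). AT3G44630 had 6.09 in Ws and 98.8 in Columbia, at least 9.88-fold lower. AT4G19500, which lies in the same cluster on chromosome 4 as AT4G19530, had 7.17 in Ws and 87.2 in Columbia, at least 8.72-fold lower. The TIR-type gene AT1G63880 had 9.45 in Ws and 87.4 in Columbia, at least 8.74-fold lower. CSA1, a TIR-type receptor first known from a mutant that grows as if shaded, had 7.89 in Ws and 69.2 in Columbia, at least 6.92-fold lower. Each of these 4 was under the floor in fnr1 Ws as well and had 70.3 to 161 in fnr1 Columbia. AT3G04210, a shorter protein with the TIR and nucleotide-binding parts, had 43.1 in Ws and 137 in Columbia (-1.66, and -1.62 in fnr1). AT2G14080 (-1.30) and AT1G72890 (-1.2) were lower at signals of 15.2 to 16.7 in Ws and 34.9 to 41.3 in Columbia. The member that was higher in Ws, AT5G47250, carries a coiled coil in place of the TIR domain. It had 44.0 in Ws and 14.2 in Columbia (1.63), and 37.3 in fnr1 Ws and 20.6 in fnr1 Columbia (0.86).

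Receptors at the cell surface were mixed. S-domain receptor kinases carry a lectin-like outer part, and of 28 with a probe set listed 6 were described. AT1G11280 had 10.2 in Ws and 136 in Columbia, a 13.3-fold lower signal, with 14 in fnr1 Ws and 110 in fnr1 Columbia. AT1G61370 went the other way, with 30 in Ws and 6.98 in Columbia, at least 3.0-fold higher, with its Ws signal just over the minimum of 30. The other 4, among them AT1G11410 and AT4G27300, had log2 ratios of -0.07 to 0.21. AT1G35710, a receptor kinase with leucine-rich repeats, had 11.1 in Ws and 69.1 in Columbia (-2.64), and in fnr1 it had 9.83 in Ws and 165 in Columbia. Of 3 malectin-like receptor kinases described, AT5G59670 was higher, with 48.5 in Ws and 15 in Columbia (1.69). In fnr1 it was nearly equal, with 66.6 in Ws and 58.8 in Columbia, so the wild type Columbia array was the low one of the 4.

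Both legume-type and jacalin lectins had 2 of 4 described members within 2-fold. Among all described genes 3.65% were lower and 2.32% higher. AT5G03350, a legume-type lectin gene that salicylic acid induces, had 28.3 in Ws and 226 in Columbia (-3.0). The difference was larger in fnr1, with 37.1 in Ws and 954 in Columbia (-4.68). In wild type AT5G03350 passed the signal minimum on Columbia alone, bright there by selection, so 3.65% is no like share for it. A second legume-type lectin, AT3G16530, had 100.1 in Ws and 269 in Columbia (-1.43, and -1.89 in fnr1). The other 2 described of that list were within 2-fold, AT3G54080 at 0.03 and AT1G53070 at 0.63. Jacalin lectins, which bind sugars and are known for aggregates formed with beta-glucosidases, had 2 of 4 described members higher, both of which passed the signal minimum on Ws alone. AT1G52000 had 107 in Ws and 19.7 in Columbia (2.43), and JAL23 had 49.0 in Ws and 20 in Columbia (1.29). Neither was 2-fold apart in fnr1, at 0.87 for AT1G52000 and -0.20 for JAL23, where fnr1 Columbia had 48.3 and 41.4. The wild type Columbia value was the lowest of the 4 arrays for both genes.

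Plant defensins are small antifungal proteins induced by jasmonate and ethylene. Of 4 described genes of the jasmonate and defensin list, 2 defensins were higher in Ws, the thionin THI2.2 given above was lower and 1 gene was within 2-fold. Among all described genes 2.32% were higher and 3.65% lower. PDF1.2 had 72.0 in Ws and 16.6 in Columbia (2.11), with 48.5 in fnr1 Ws and 23.6 in fnr1 Columbia (1.04). PDF1.2b had 42.3 in Ws and 11.0 in Columbia (1.95, and 1.08 in fnr1), from a probe set of a type that can also bind related transcripts. In both genotypes the Ws array was the higher one for both defensins, which passed the signal minimum on Ws alone in wild type. MYC3, a jasmonate-response regulator in the same list, had a log2 ratio of -0.16.

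Proteins with a TRAF-like MATH domain, a fold that binds other proteins, had 3 of 4 described members lower, beside 3.65% of all described genes. ZW9 had 7.63 in Ws and 121 in Columbia, at least 12.1-fold lower. AT1G65370 had 4.43 in Ws and 87.1 in Columbia, at least 8.71-fold lower. AT3G28220 had 24.7 in Ws and 127 in Columbia (-2.37). The remaining member described, AT4G00780, had 473 in Ws and 563 in Columbia (-0.25). In fnr1 the first 3 were again at least 2-fold lower. A probe set was listed for 21 of 66 entries, and 3 of the 4 described passed the minimum on Columbia alone. These 3 were the lower members, bright in Columbia by selection, so 3.65% is no like share for them.

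**Figure D3:**
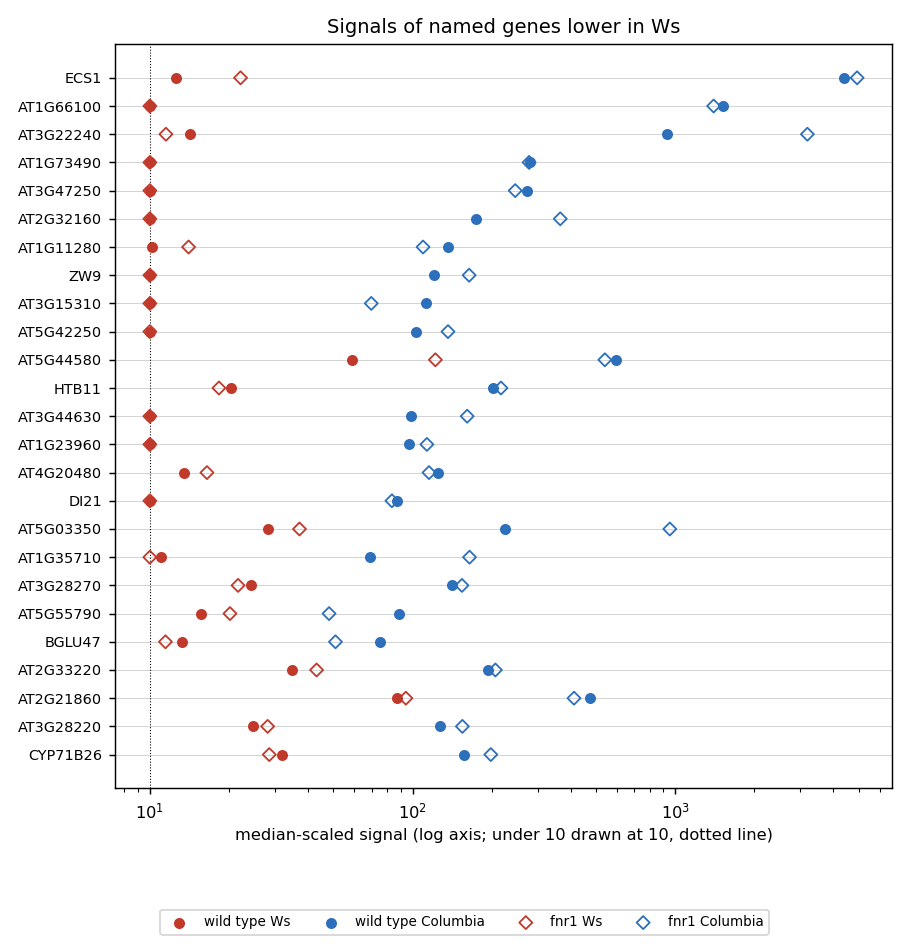
Median-scaled signal on a log axis of the 25 genes lower in Ws that the naming rule gave, ordered by log2 ratio, with filled circles for wild type, open diamonds for fnr1, red for Ws and blue for Columbia. Signals under 10 are drawn at 10, the dotted line, and for each gene both red points lie left of both blue points.

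In all, 35 genes fell under the floor in Ws while reaching 30 or more in Columbia with at least a 2-fold difference, and 10 genes did the reverse. The bounds of the 35 ran from 3.03-fold to 152-fold with a median of 6.41-fold, and 33 of them were under the floor in fnr1 Ws too. AT1G73490, which encodes an RNA-binding protein, had 8.6 in Ws and 279 in Columbia, at least 27.9-fold lower. AT3G47250, a gene of a plant protein family of unknown function, had 4.01 in Ws and 274 in Columbia, at least 27.4-fold lower. AT2G32160, a methyltransferase-like gene, had 3.70 in Ws and 174 in Columbia, at least 17.4-fold lower. These 3 were as dim in fnr1 Ws, at 9.35, 7.0 and 0.286. AT3G15310 (at least 11.2-fold), AT5G42250, an alcohol dehydrogenase-like gene (at least 10.3-fold), AT1G23960 (at least 9.73-fold) and the drought-induced gene DI21 (at least 8.76-fold) were lower in the same manner. AT3G28540, an AAA-type ATPase gene related to BCS1, had 7.85 in Ws and 41.4 in Columbia, at least 4.14-fold lower.

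The histone genes and the remaining genes with the lowest ratios were measured at 10 or more in both ecotypes. HTB11, which encodes a histone H2B, had 20.4 in Ws and 203 in Columbia, a 9.94-fold lower signal, and 18.3 in fnr1 Ws and 217 in fnr1 Columbia. Another H2B gene, HTB2, had 84.5 in Ws and 222 in Columbia (-1.39). For HTB4 the signals were 531 in Ws and 478 in Columbia (0.15), and for HTB1 they were 288 in Ws and 175 in Columbia (0.72). Histone H2B genes are close in sequence, and how far their probe sets share transcripts was not tested. AT5G44580, a gene of unknown function, had 58.7 in Ws and 594 in Columbia, a 10.1-fold lower signal (4.42-fold in fnr1). AT2G21860, related to violaxanthin de-epoxidase, had 87.2 in Ws and 473 in Columbia (-2.44). AT2G33220, which encodes a subunit of mitochondrial complex I, had 34.7 in Ws and 193 in Columbia (-2.48). AT4G20480 (-3.22), AT3G28270 (-2.54) and AT5G55790 (-2.51) completed the 15 lowest measured genes together with those named above and below.

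Cytochrome P450 enzymes oxidise small molecules, and several of the CYP71B genes form a row of near copies on chromosome 3. CYP71B26 had 31.8 in Ws and 156 in Columbia (-2.3), and 28.5 in fnr1 Ws and 199 in fnr1 Columbia (-2.80). CYP71B24 had 4.84 in Ws and 34.9 in Columbia, at least 3.49-fold lower. These 2 of 9 described P450 genes stand beside 3.65% lower over all described genes. CYP71B24 passed the signal minimum on Columbia alone and was bright there by selection, so 3.65% is no like share for it. Among the 8 that passed on both arrays 1 was lower. The other 7 P450 genes described lay between -0.21 and 0.06. Among them were CYP71B34, with 66.1 in Ws and 70.2 in Columbia, and CYP71B35, with 56.7 in Ws and 57.7 in Columbia. The row thus held both lower and near-equal genes.

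UDP-glycosyltransferases attach sugars to hormones and metabolites, and 16 of 18 described were within 2-fold. UGT87A2, known from the control of flowering time, had 185 in Ws and 50.3 in Columbia (1.87), and 185 in fnr1 Ws and 60.9 in fnr1 Columbia (1.61). UGT85A2 had 12.7 in Ws and 41.3 in Columbia (-1.70). Of 7 beta-glucosidases described, BGLU47 was lower, with 13.3 in Ws and 75.4 in Columbia (-2.50, and -2.15 in fnr1). The next lowest, BGLU25 (-0.91) and BGLU40 (-0.66), were within 2-fold. None of 5 glutathione transferases was 2-fold apart, GSTU27 having the largest ratio at 0.85. The 7 genes of glucosinolate and myrosinase metabolism lay between -0.24 and 0.21, with a median of 0.08.

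Carbon and lipid enzymes gave 2 members at opposite ends. ATP-citrate lyase makes cytosolic acetyl-CoA from A and B subunits, and the A subunit has several gene copies. ACLA-2 had 295 in Ws and 74.0 in Columbia (2.0), and 358 in fnr1 Ws and 102 in fnr1 Columbia (1.8). ACLA-1 had 784 in Ws and 874 in Columbia (-0.16), ACLA-3 had 93.3 in Ws and 138 in Columbia (-0.56), and ACLB-1 had 425 in Ws and 351 in Columbia (0.28). ACLA-2 was thus the 1 of the 4 described subunit genes at least 2-fold apart, also under the 4 other scalings. WSD1, a wax ester synthase, had 8.80 in Ws and 58.2 in Columbia, at least 5.82-fold lower, with 8.72 in fnr1 Ws and 42.7 in fnr1 Columbia.

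Cell wall genes showed a modest spread. Of 14 expansins, xyloglucan-modifying enzymes and cellulose synthase-like genes described, 3 were lower and none was higher. The shares over all described genes were 3.65% lower and 2.32% higher. CSLC04, an enzyme of the xyloglucan backbone, had 65.6 in Ws and 195 in Columbia (-1.57, and -1.49 in fnr1). The expansin gene EXPB3 had 52.3 in Ws and 138 in Columbia (-1.40, and -0.73 in fnr1). EXLB1, an expansin-like gene, had 21.7 in Ws and 44.8 in Columbia (-1.04). It passed the signal minimum on Columbia alone and was bright there by selection, so 3.65% is no like share for it. Among the 12 genes that passed on both arrays 2 were lower. At the other end EXPA8 had 890 in Ws and 465 in Columbia (0.94, and 0.78 in fnr1), just within 2-fold. On the deposited scale 2 were lower and 2 higher.

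The genes higher in Ws were led by transcripts with no well-known role. AT2G15560 had 153 in Ws and 11.1 in Columbia, a 13.7-fold higher signal, with 182 in fnr1 Ws and 12.5 in fnr1 Columbia. AT1G50290 had 260.0 in Ws and 19.3 in Columbia, a 13.5-fold higher signal, with 338 in fnr1 Ws and 21.1 in fnr1 Columbia. AT5G55570 had 199 in Ws and 32.2 in Columbia, a 6.17-fold higher signal, and 182 in fnr1 Ws and 33.8 in fnr1 Columbia. For these 3 the arrays of an ecotype lay close together and the ecotypes far apart. AT5G15360 had 98.3 in Ws and 1.81 in Columbia, at least 9.83-fold higher, and AT4G19240 had 52.5 in Ws and 0.958 in Columbia, at least 5.25-fold higher. AT5G22430, related to the pollen allergen Ole e 1, had 54.5 in Ws and 7.43 in Columbia, at least 5.45-fold higher.

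Enzymes and transporters followed. AT1G20490, related to 4-coumarate-CoA ligases, had 57.7 in Ws and 11.7 in Columbia (2.3, and 2.69 in fnr1). AT2G35820, annotated as a ureidoglycolate hydrolase of purine breakdown, had 132 in Ws and 31.3 in Columbia (2.08, and 2.45 in fnr1). AT3G59780, a gene with a rhodanese-like domain, had 691 in Ws and 182 in Columbia (1.92), and 613 in fnr1 Ws and 215 in fnr1 Columbia. The 2 Ws arrays lay well above the 2 Columbia arrays. AT2G20870, annotated as a cell wall protein, had 146 in Ws and 37.7 in Columbia (1.95, and 2.19 in fnr1). AT1G54120, with 77.6 in Ws and 22 in Columbia (1.82), had a ratio of 1.23 in fnr1. AT1G25530, an amino acid transporter-like gene, and AT5G24240, a phosphatidylinositol 4-kinase-like gene, were at least 3.39-fold and 3.30-fold higher, with Columbia signals of 5.05 and 1.25. AT1G73120 and AT1G05550, at 35.6 and 34.3 in Ws, were at least 3.56-fold and 3.43-fold higher.

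For some of the higher genes the fnr1 arrays gave a much smaller difference. AT3G43670, a copper amine oxidase gene, had 119 in Ws and 30.5 in Columbia (1.96), but 72.0 in fnr1 Ws and 68.3 in fnr1 Columbia (0.08). AT5G50335 had 68.6 in Ws and 9.78 in Columbia, at least 6.86-fold higher, and 34.0 in fnr1 Ws and 17.6 in fnr1 Columbia (0.95). OTP81, a pentatricopeptide repeat protein that edits RNA in organelles, had 39.5 in Ws and 10.1 in Columbia (1.97, and 0.90 in fnr1). In each case wild type Ws was the highest and wild type Columbia the lowest of the 4 arrays.

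**Figure D4:**
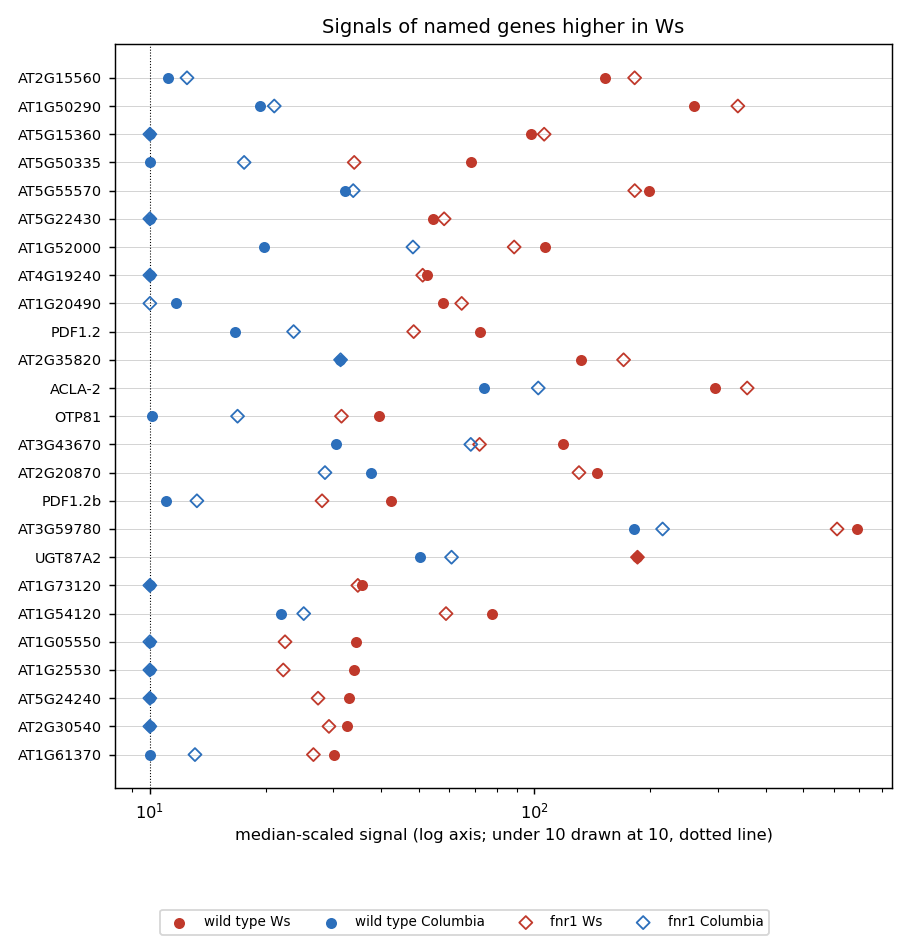
Median-scaled signal on a log axis of the 25 genes higher in Ws that the naming rule gave, ordered by log2 ratio, with filled circles for wild type, open diamonds for fnr1, red for Ws and blue for Columbia. Signals under 10 are drawn at 10, the dotted line, and the fnr1 diamonds of AT3G43670 nearly coincide at 72.0 and 68.3.

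Most of the listed photosynthesis genes were within 2-fold. Of 30 light-harvesting antenna entries 3 had a probe set listed with 1 gene in the annotation used, all of them LHCB4 genes. Their median log2 ratio was -0.74 in wild type and -1.10 in fnr1. LHCB4.2 encodes CP29, a minor antenna protein between the photosystem II core and its outer antenna. It had 2879 in Ws and 6173 in Columbia (-1.10), and 2689 in fnr1 Ws and 5766 in fnr1 Columbia (-1.10). LHCB4.3 had 281 in Ws and 469 in Columbia (-0.74, and -1.37 in fnr1). LHCB4.1 had 6037 in Ws and 6536 in Columbia (-0.11, and -0.05 in fnr1). On the deposited scale LHCB4.2 had -0.71, short of 2-fold. Of 11 nuclear genes for photosystems and electron transfer, 10 were within 2-fold, among them PSAE-1, with 4962 in Ws and 5455 in Columbia, and PSAN, with 4705 in Ws and 4444 in Columbia. The 11th, CRR22, is a pentatricopeptide repeat protein that edits plastid transcripts, and it had 37.1 in Ws and 14.5 in Columbia (1.36, and 0.40 in fnr1). Chlorophyll and heme synthesis had 0 of 9 genes at 2-fold, from GSA1 (-0.70) to HEMA2 and PORB (0.77 each). On the deposited scale 2 of these 9 were higher.

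The plastid genome encodes core photosystem subunits and part of its own gene expression machinery. Of its 69 genes with a probe set listed 67 were described, 2 of them at least 2-fold higher in Ws and 0 lower. Their median log2 ratio was 0.18 in wild type and 0.04 in fnr1. The 2 higher genes made up 2.99%, near the 2.32% of all described genes. On the deposited scale 6 were higher. PetG, a small subunit of the cytochrome b6f complex, is encoded by petG, which had 190.9 in Ws and 90.2 in Columbia (1.08), and 193 in fnr1 Ws and 91.7 in fnr1 Columbia (1.08). Ribosomal protein S4 is encoded by rps4, which had 5347 in Ws and 2649 in Columbia (1.01, and 0.90 in fnr1). The gene of the photosystem II core protein D1, psbA, had 2647 in Ws and 1429 in Columbia (0.89, and 0.80 in fnr1). At the low end, the subunit genes ndhH (-0.79, and -0.92 in fnr1) and ndhA (-0.75, and -1.01 in fnr1) of the NDH complex, which returns electrons from the stroma to plastoquinone, were lower in both pairs without reaching 2-fold in wild type. The median plastid signal was 1449 on wild type Ws, 1222 on wild type Columbia, 1338 on fnr1 Ws and 1391 on fnr1 Columbia.

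Genes that protect against or sense oxidation were mostly even. CCS, the chaperone that delivers copper to superoxide dismutase, had 451 in Ws and 203 in Columbia (1.15), and 633 in fnr1 Ws and 234 in fnr1 Columbia (1.44). The other 7 genes of that list were within 2-fold. The ascorbate synthesis gene VTC4 had 712 in Ws and 457 in Columbia (0.64, and 0.89 in fnr1), and ARPN, a small copper protein, had 42.9 in Ws and 80.3 in Columbia (-0.90, and -1.67 in fnr1). CC-type glutaredoxins, a land plant class of small redox proteins, had 2 of 6 described members higher, beside 2.32% of all described genes. AT2G30540 had 32.5 in Ws and 9.25 in Columbia, at least 3.25-fold higher, and AT2G47880 had 30.7 in Ws and 13.3 in Columbia (1.2). Both were at least 2-fold higher in fnr1 Ws too, and both passed the minimum on Ws alone. They were thus bright in Ws by selection, and 2.32% is no like share for them. The 4 described members that passed on both arrays were within 2-fold.

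Most of the regulators and stress genes given here were within 2-fold. Over all described genes 3.65% were lower and 2.32% higher. Of 3 flowering time genes, SNZ, a repressor of flowering related to APETALA2, had 82.5 in Ws and 40.3 in Columbia (1.04, and 0.91 in fnr1), which loess scaling put at 0.99. FY had 0.20 and LD 0.53. Of 10 ubiquitin-conjugating enzymes, UBC18 (34.7 in Ws and 78.8 in Columbia, -1.18) and UBC28 (390 in Ws and 797 in Columbia, -1.03) were lower. In fnr1 they had -1.93 and -1.99, and on the deposited scale neither wild type ratio reached 2-fold. EXO, a growth-related gene of the sugar starvation list, had 63.0 in Ws and 137 in Columbia (-1.12, and -0.23 in fnr1, with -0.73 in wild type on the deposited scale), while the other 7 described of that list were within 2-fold. The cold-induced genes COR15B (0.95), COR15A (0.10) and COR47 (0.05) and the flavonoid genes DFR (-0.38), UGT78D1 (-0.33) and UGT78D2 (0.06) were within 2-fold. The small heat shock gene AT1G54050 had 8.31 in Ws and 30.7 in Columbia, at least 3.07-fold lower, and AT5G54660 had -0.94.

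Lists with 1 or 2 described members had no further 2-fold difference in the circadian clock genes GI (0.37) and TIC (0.07), the transcription factor genes WRKY20 (0.14) and NAC014 (0.26), and the light signalling gene HYH (0.30). BIK1, a kinase partner of surface immune receptors, had 0.18, the receptor kinase AT3G22060 -0.84, the pentatricopeptide gene PPR336 0.05, and the subtilase genes SBT3.12 and SBT1.3 -0.36 and -0.16. Over the 52 lists, 28 had at least 3 described members, 13 had 1 or 2 and 11 had none. Of the 28, 10 had lower members alone at 2-fold, 8 higher members alone, 5 both and 5 neither.

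**Figure D5:**
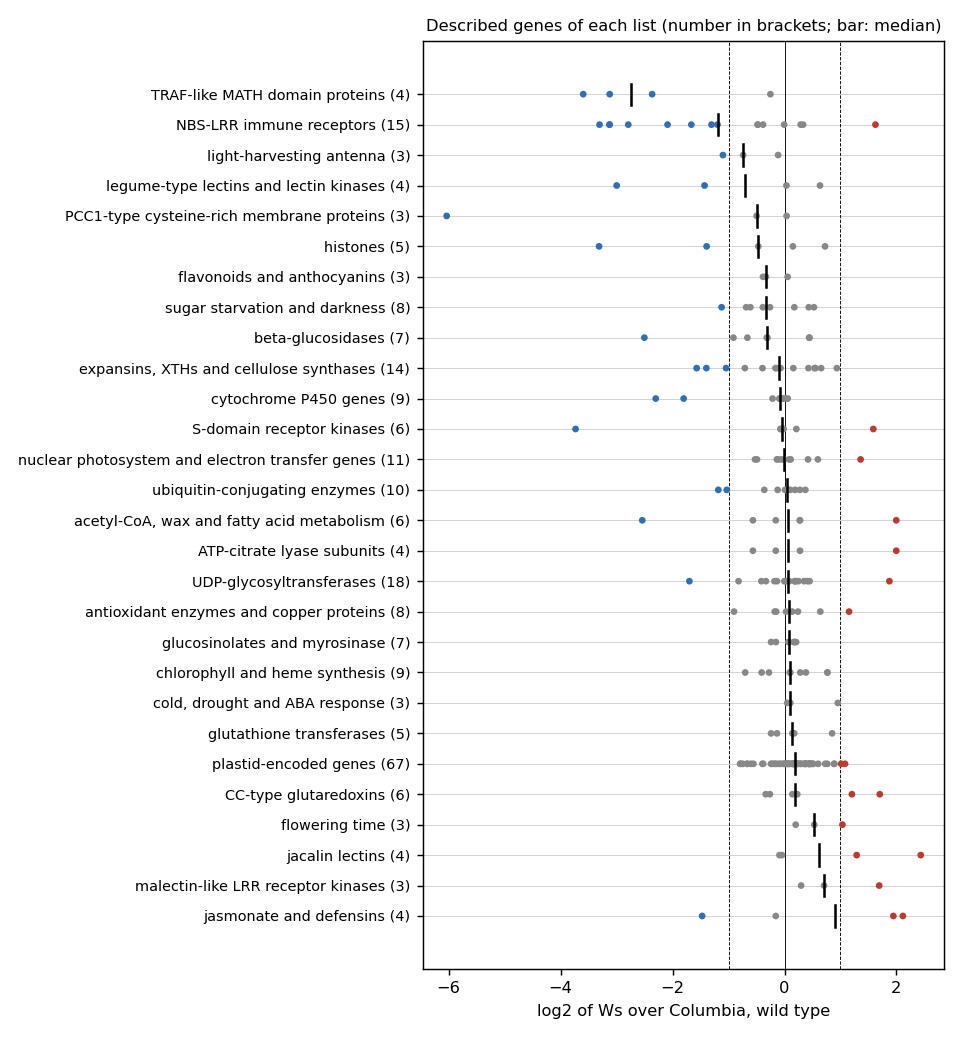
Log2 ratio of Ws over Columbia in wild type for the described genes of the 28 lists with at least 3, each point a gene and each black bar the list's median, with the number of genes in brackets. Red points are at least 2-fold higher and blue points at least 2-fold lower in Ws, and dashed lines mark 2-fold. Members that passed the signal minimum in one ecotype alone are included, such as 8 of the 15 NBS-LRR genes in Columbia, so the medians are no measure of the families as a whole.

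Along the genome the differences were spread over the 5 nuclear chromosomes. The share of lower genes was 3.95% on chromosome 1, 2.45% on chromosome 2, 3.91% on chromosome 3, 3.64% on chromosome 4 and 3.89% on chromosome 5. Higher genes made up between 1.88% on chromosome 4 and 3.27% on chromosome 2, the one nuclear chromosome with more higher than lower genes at this scaling. Of 1440 pairs of described genes that were next to each other in the gene order, 8 had both members at least 2-fold apart, 6 in the same direction. Singly, 3.65% of all described genes were lower and 2.32% higher. Whether 8 pairs are more than unrelated differences would give was not tested. AT5G55570 (2.63) stood beside AT5G55580 (1.34), which encodes an mTERF-type protein, and AT1G50290 (3.75) beside AT1G50280 (1.37). In fnr1 AT1G50280 had -0.08. Pairs lower in Ws were AT5G03350 with AT5G03345 (-1.30), NAI2 (-1.91) with AT3G15940 (-1.14), AT1G59960 (-1.19) with AT1G59970 (-1.12), and AT5G61330 (-1.32) with AT5G61340 (-1.02). NAI2 is needed for ER bodies, the stores of beta-glucosidase in Brassicales. The receptor kinase gene AT1G11280 (-3.73) and CRR22 (1.36) were neighbours with opposite ratios. So were AT3G55410 (1.03), a subunit of 2-oxoglutarate dehydrogenase, and AT3G55420 (-1.0).

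Over runs of 40 described genes, the one with the most lower genes held 9 and lay on chromosome 5 between AT5G42220 and AT5G43780. Its lower genes were AT5G42250, AT5G42570, AT5G42680, UBC18, AT5G43150, AT5G43310, AT5G43440, AT5G43745 and APS4, an ATP sulfurylase gene with 53.9 in Ws and 151 in Columbia (-1.49, and -1.60 in fnr1). In fnr1, AT5G42570 (-0.35) and AT5G43310 (-0.93) fell short of 2-fold and the others did not. The run with the most higher genes held 5 and lay on chromosome 1 between AT1G11080 and AT1G12520, with scpl31, CRR22, AT1G11800, AT1G12080 and CCS. Of these 5, CCS alone reached 2-fold in fnr1. Both runs were picked as the extremes over the genome.

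A part of the largest differences belonged to probe sets with no gene in the annotation used, chosen here after their values were seen. The highest ratio of all was that of 263174_at, with 5169 in Ws and 155 in Columbia, a 33.3-fold higher signal, and 4748 in fnr1 Ws and 147 in fnr1 Columbia. The 4 arrays split by ecotype, with those of an ecotype close together. The probe set 264513_at had 149 in Ws and 14.9 in Columbia, a 9.95-fold higher signal. On the lower side 257008_at had 382 in Ws and 5415 in Columbia, a 14.2-fold lower signal, and 267126_s_at had 129 in Ws and 2136 in Columbia, a 16.5-fold lower signal. In fnr1 they were 17.8-fold and 15.9-fold lower. Of the 678 probe sets at least 2-fold apart, 357 had 1 gene listed, 33 had several and 288 had none.

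Among 44 genes with more than one described probe set, 41 had none past 2-fold. In each of the other 3 a probe set was past 2-fold and the second was short of it, so no 2-fold difference was seen by both probe sets of a gene. DME, the DNA glycosylase that removes methylated cytosine, had 34.8 in Ws and 11.5 in Columbia on one probe set (1.60) and 55.4 in Ws and 49.8 in Columbia on the other (0.16). AT1G23440 had 15.4 in Ws and 51.5 in Columbia on one (-1.74) and 85.8 in Ws and 49.1 in Columbia on the other (0.80). AT2G48060 had 1.35 and 0.87. Probe sets that match several transcripts by their name were apart more often, with 7.20% lower and 4.37% higher of 389, beside 3.54% and 2.23% of the 10953 with a plain name.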

How the data were processed

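Transcript signals were measured on Affymetrix arrays of 4 RNA samples, with 3 µg of total RNA each per the labels' protocols. Each deposited value is the intensity of a probe set on a linear scale. MAS5 was the tool used by the authors, according to the submitters' processing notes. Its version, scaling target and detection calls are not given in the sources used here.

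All 4 arrays were scaled to the geometric mean of the 2 wild type medians, signals under 10 were set to 10, and log2 of Ws over Columbia was taken in Python 3.11.15 with pandas 2.3.3 and numpy 2.4.6. A difference was counted from 2-fold, and a fold with a signal under 10 is a lower bound. The steps were tested on simulated data. With 1 array a group no test was run, and the number of arrays limits the precision.

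Of the 22746 non-control probe sets, 13513 had 1 gene in the platform annotation, 503 several and 8730 none. Genes were named from the first kind, with symbols updated through gene IDs to the RefSeq TAIR10.1 table for 13436. Each gene is given by its brightest probe set. The rule for named genes took the 15 highest and 15 lowest measured genes, the 10 brightest bounded genes on each side, members of each list at least 2-fold apart (up to 6, or else the 2 largest) and neighbouring genes that differed the same way. Genes of the highest-count runs, further members given for contrast and probe sets without a gene were added after their values were seen. The lists were chosen with earlier results of these data known. Family lists by locus (NBS-LRR, TRAF-like, lectins, thionins, receptor kinases and others) were written from general knowledge after the largest differences had been seen. FLS2 and PHYD were not analysed here.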

Additional observations from a re-analysis of the deposited data

Results flagged for a closer look

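A total of 3 genes were at least 2-fold apart in wild type and at least 2-fold apart the opposite way in fnr1. With 1 array per group the difference between the genotypes was not tested. AT1G16670, a cold-responsive kinase gene, had 31.1 in Ws and 15.4 in Columbia in wild type (log2 ratio 1.01), but 18.9 in Ws and 46.3 in Columbia in fnr1 (-1.29). AT3G28670 had 28.2 in Ws and 60.7 in Columbia in wild type (-1.10), and 30.8 in Ws and 8.07 in Columbia in fnr1 (1.62), so that the 2 Columbia arrays lay farther apart than the 2 Ws arrays. AT2G39960, a signal peptidase subunit gene, had 114 in Ws and 282 in Columbia in wild type (-1.31), and 282 in Ws and 130 in Columbia in fnr1 (1.12). Beside these 3, 12 of the 138 higher genes and 6 of the 217 lower genes in wild type had a ratio of the other sign in fnr1, short of 2-fold.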

How the results depend on the processing

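Scaling and filters moved how many probe sets were 2-fold apart. Beside 262 higher and 416 lower probe sets after median scaling, the deposited scale gave 1060 and 220. Requiring a signal of 30 on both arrays gave 101 and 182, and requiring 60 on one array gave 133 and 275. A pseudocount of 10 in place of the floor gave 136 and 305, and counting genes gave 138 and 217. The other 8 of the 13 alternatives stayed within 1.5 times of both counts, from 194 to 373 higher and from 353 to 565 lower, among them quantile, loess and trimmed mean scaling and the fnr1 pair with its own minimum (203 and 484). Of these, a floor of 5 and no floor could not change the counts. A signal of 30 or more against one under 10 is past 2-fold in either case. Of 1114 values of 110 named genes, 223 moved by more than 0.29 on the log2 scale and 0 were counted as reversed. The 0 is no count of sign turns. The deposited scale raised the median log2 ratio of the probe sets from 0.05 to 0.45, and small negative ratios turned positive there. Settings that only change which probe sets are kept leave a gene's ratio as it was. Neither a floor nor a pseudocount can turn its sign, so the 0 was fixed in advance for those settings. Of 88 named genes at least 2-fold apart, 11 of 87 fell short of it on the deposited scale, 10 of 88 with the pseudocount, 14 with a floor of 20 and 1 with loess. List medians moved by more than 0.29 in 39 of 292 values, and 0 were counted as reversed, again not a count of sign turns. Medians just below 0, such as -0.09 for the P450 list, turned positive on the deposited scale. No paired analysis was possible because the wild type comparison sets 1 array against 1 and comes from no test, and no replicate could be left out. A fit over all 4 arrays with genotype as a block was not run. Signals under 30 may lie near background, which was not measured here, and the floor limits the folds of dim genes.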
